A study of Mus musculus with 8 samples.

Results

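The genes described here encode the auxiliary subunits of voltage-gated calcium channels. They were chosen by family membership, as the 4 α2δ genes Cacna2d1 to Cacna2d4 and the 4 β genes Cacnb1 to Cacnb4. These 8 genes were among 17500 in the deposited count table, and each of them passed the count filter and entered the test.

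RNA was sequenced from whole retinas of 4 control and 4 Rbfox2-/- mice, a group labelled Rbfox2 KD, all 6 months old on a C57BL/6J background. The Rbfox2-/- mice were Rbfox2 fl/fl with 1 copy of a Cre recombinase that tamoxifen switches on, and they were studied 4 months after induction. The labels state tamoxifen treatment for 4 months for the 4 controls as well, while the study's methods name tamoxifen or a vehicle. The age-matched controls were described as heterozygous Rbfox2 fl/+ animals, and the sources used here do not settle whether those 4 mice carried Cre or which treatment they received. The effects of the lost Rbfox2 alleles, Cre and tamoxifen can therefore not be told apart. Rbfox2 belongs to a family of nuclear and cytoplasmic RNA-binding proteins best known for choosing which exons are spliced into neuronal and muscle transcripts.

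A voltage-gated calcium channel is built around a pore-forming α1 subunit. The β subunit binds the channel from the cytoplasm and helps bring it to the membrane, while the largely extracellular α2δ subunit raises the number of channels at the surface and also takes part in forming synapses. At the ribbon synapse of rods and cones, glutamate release is driven by the Cav1.4 channel, made of Cacna1f, Cacnb2 and Cacna2d4.

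The genes were spread over 7 chromosomes of the GRCm38 build, and only Cacnb2 and Cacnb4 shared one, chromosome 2. Cacna2d4 lay on the plus strand at chr6:119236526-119352407, and Cacnb4 on the minus strand at chr2:52428320-52676831. Rbfox proteins bind the RNA element UGCAUG, so the longest coding GENCODE transcript of each gene was searched on its sense strand for TGCATG, its DNA spelling. Cacnb4 held 6 matches, Cacna2d4 held 4, Cacna2d1 held 3 and Cacnb2 held 1, while Cacna2d2, Cacna2d3, Cacnb1 and Cacnb3 held 0. Of 15397 genes with a coding model, 55.7% held at least 1 match. Transcripts near Cacna2d4 in length held one in 78.8% of genes and those near Cacnb4 in 88.1%, so at least 1 match was the usual state at these lengths. Those shares do not describe the number of matches. Per kilobase, Cacnb4 held 0.729, Cacna2d4 0.689, Cacna2d1 0.403 and Cacnb2 0.253 matches, against 0.287 pooled over all genes with a coding model. These densities were not tested.

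All 6 matches of Cacnb4 and all 3 of Cacna2d1 were in the 3′ UTR, whereas 3 of those in Cacna2d4 lay wholly in the coding sequence. These 3 and the 6 of Cacnb4 are shown, since Cacna2d4 and Cacnb4 were the members whose groups of mice did not overlap in the comparison that follows. Each is given as 30 bases, 5′ to 3′, from the GENCODE transcripts, with the element in capitals and the transcript position of its first base.

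Cacna2d4 at position 1526, coding, chr6:119274270-119274299: tgatggagtaccTGCATGtgcttagccgcc
Cacna2d4 at position 1769, coding, across the exon junction within chr6:119277896-119278213: ataagcttggggTGCATGgctatgccttct
Cacna2d4 at position 3023, coding, across the exon junction within chr6:119344553-119345045: ccaggtggctacTGCATGaatgtctcctat
Cacnb4 at position 3298, 3′ UTR, chr2:52433235-52433264: gggcagttttaaTGCATGccattagagaga
Cacnb4 at position 3495, 3′ UTR, chr2:52433038-52433067: tgaaatgacacaTGCATGtgttttctaaag
Cacnb4 at position 4044, 3′ UTR, chr2:52432489-52432518: atagcacatactTGCATGagaaagaaaaca
Cacnb4 at position 6520, 3′ UTR, chr2:52430013-52430042: aagacaaaatgcTGCATGtaatgaaggtgt
Cacnb4 at position 8009, 3′ UTR, chr2:52428524-52428553: atgcaaatgtacTGCATGctttgttctccc
Cacnb4 at position 8114, 3′ UTR, chr2:52428419-52428448: aaaaatgcagagTGCATGaatacagtatcc

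These letters describe the transcripts and are no evidence of binding in these retinas. Introns, where Rbfox proteins also bind, were not analysed here.

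The libraries held 160630226 to 211283591 gene counts per mouse. Rbfox2, read as a check of the labels, ranged from 143.8 to 156.8 CPM, TMM-normalized counts scaled to a common library size, in the controls and from 53.6 to 59.4 CPM in the Rbfox2-/- retinas, a log2 fold change of -1.41 ± 0.046 (SE, n = 4 per group). Counts cover the whole gene and not the floxed exons alone. The first principal component, 40.5% of the variance, set the Rbfox2-/- mice M901 and M902 apart, and the second, 19.2%, set M909 apart. M901 and M902 held Xist at 1440 and 1739 CPM against at most 2.22 CPM in the other 6 libraries, with Ddx3y of the Y chromosome at 0.32 and 0.22 CPM against 60.5 to 69.5 CPM. Both female-pattern libraries were in the Rbfox2-/- group. Values without them are given for Cacna2d2, Cacna2d3, Cacna2d4, Cacnb4 and the rod marker mean.

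Levels were compared between genes on the deposited FPKM scale, which divides each count by the library total and by 1 fixed transcript length per gene. Cacna2d4 was the most abundant auxiliary subunit, with a mean of 95.9 ± 6.13 FPKM (SD, n = 8 mice), followed by Cacnb2 with 54.6 ± 1.8 FPKM. Cacnb3 had 24.9 ± 2.49 FPKM and Cacna2d2 had 24.0 ± 1.39 FPKM, and the ranges of these neighbours overlapped. Cacna2d3 followed with 14.99 ± 0.84 FPKM. Cacna2d1 had 8.30 ± 0.53 FPKM and Cacnb1 had 7.62 ± 0.65 FPKM, again with overlapping ranges, and Cacnb4 was lowest with 6.20 ± 0.29 FPKM. The photoreceptor pair Cacna2d4 and Cacnb2 thus headed the order, with 40.6% and 23.1% of the mean FPKM summed over the 8 genes.

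**Figure D1:**
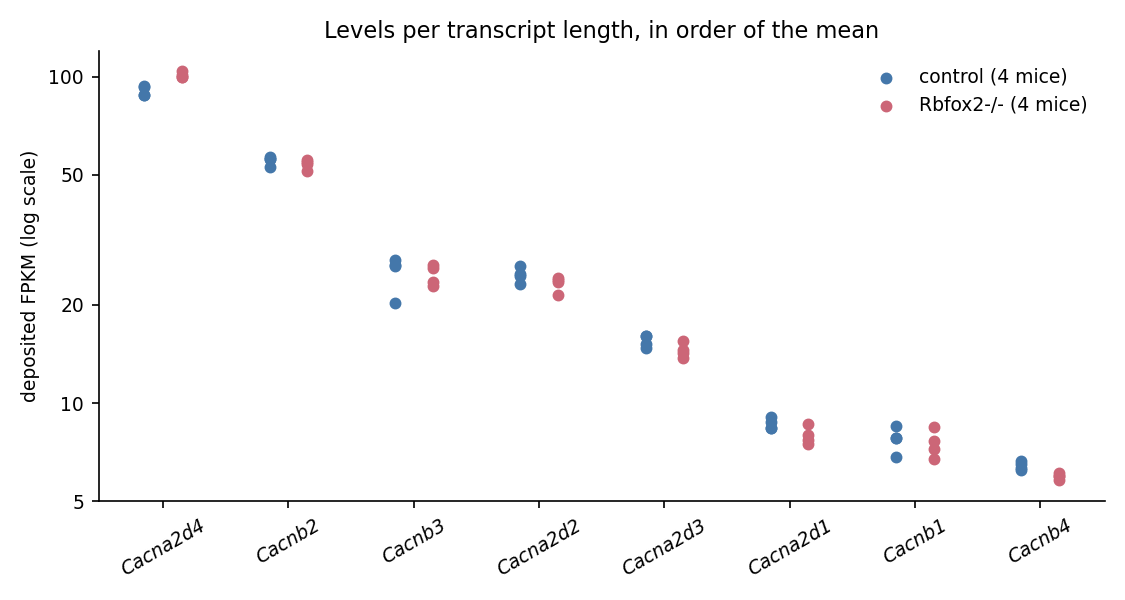
Deposited FPKM (log scale) of the 8 auxiliary subunit genes in order of their mean, with 1 point per mouse and the groups side by side. Cacna2d4 stands highest at 87.7 to 103.9 FPKM and Cacnb4 lowest at 5.81 to 6.65 FPKM.

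The order depended in part on the length used. Dividing by the union of all annotated exons kept Cacna2d4 first, at 58.7 FPKM, but brought Cacna2d2 with 16.7, Cacnb2 with 16.3 and Cacnb3 with 16.0 FPKM close together. On that scale Cacna2d1 was lowest, at 4.96 FPKM, below Cacnb4 at 5.49 FPKM. Fold changes between groups of mice are unaffected by this choice.

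The comparison of Rbfox2-/- with control retinas asks whether the loss of Rbfox2 in the adult changed the RNA level of these subunits. None of the 8 genes passed a false discovery rate (FDR) of 0.05 in edgeR's quasi-likelihood test, in which 11 of 16797 genes, 0.0655%, were called. At an unadjusted p under 0.05, Cacna2d4 was higher and Cacnb4 was lower. Among all genes tested, 6.42% were higher and 6.87% lower at that threshold. Cacna2d4 and Cacnb4 were also the members whose groups did not overlap, a state found in 3.64% of all genes with the Rbfox2-/- group higher and in 3.39% with it lower. With DESeq2, Cacna2d4 alone among the 8 passed, at an adjusted p of 0.00582, where 2.8% of the genes given an adjusted p were called. The median log2 fold change of the 8 genes was -0.05, against 0.0016 over all genes tested, with 1 gene above 0 and 7 below.

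**Figure D2:**
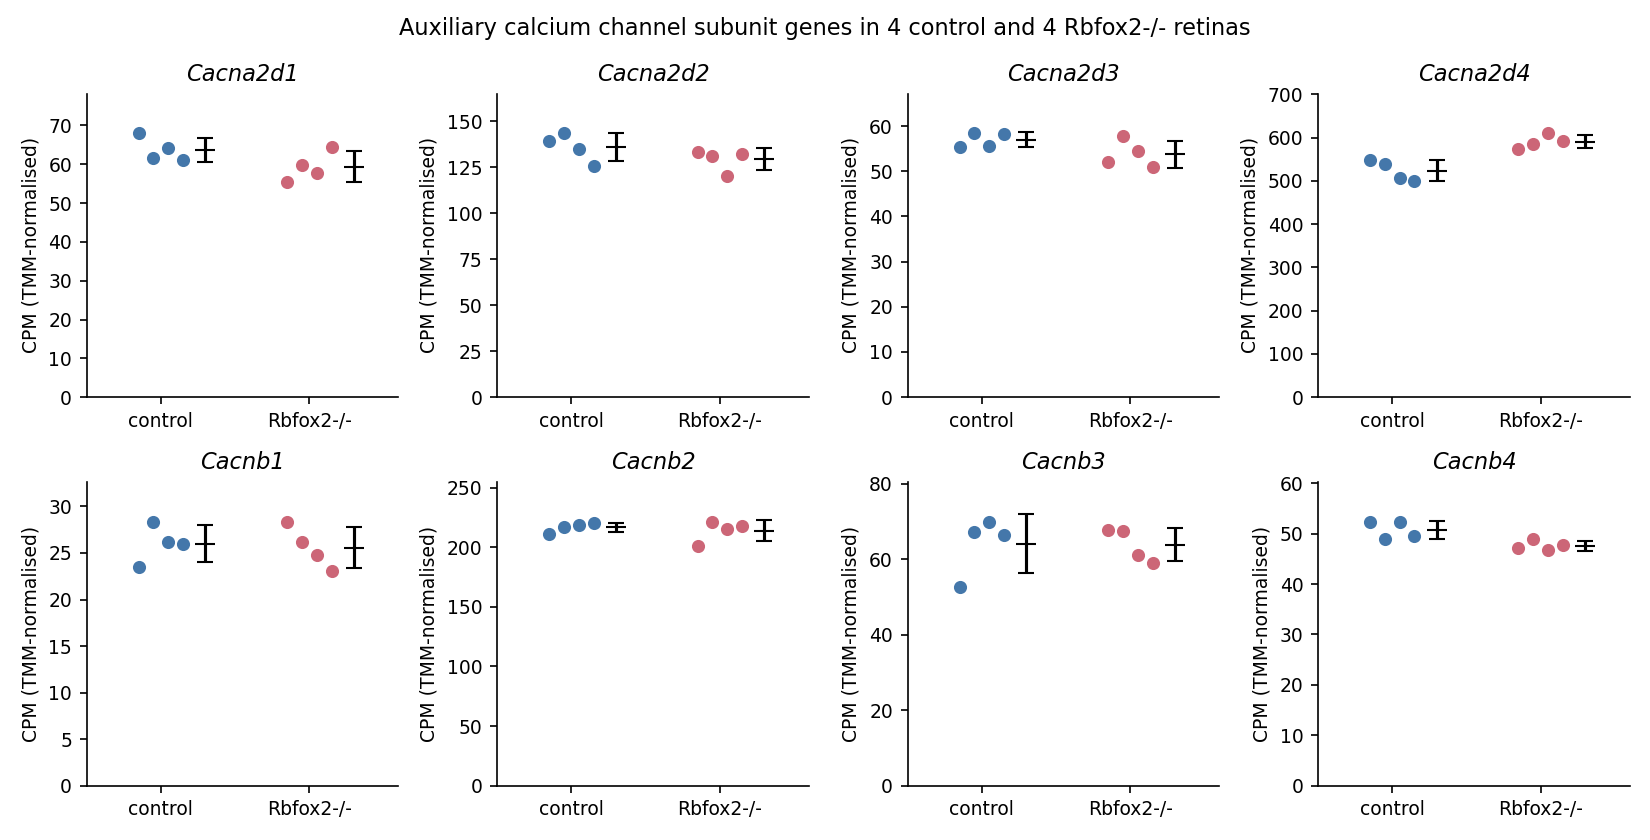
CPM after TMM normalization for each gene, with 1 point per mouse and the mean ± SD (n = 4) in black, on axes that start at 0. The 4 Rbfox2-/- retinas lie above every control for Cacna2d4 and just below every control for Cacnb4, and overlap the controls for the other 6 genes.

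Cacna2d4 encodes α2δ-4, the α2δ subunit of photoreceptors. Its CPM was 549.3, 538.0, 505.8 and 500.8 in control mice M833, M894, M896 and M898, and 574.8, 584.4, 610.5 and 592.4 in Rbfox2-/- mice M893, M901, M902 and M909. Every Rbfox2-/- retina was above every control. The means were 523.5 ± 23.8 and 590.5 ± 15.1 CPM (SD, n = 4), a difference of 12.8%. The log2 fold change was 0.17 ± 0.042 (SE), with a 95% interval from 0.080 to 0.27, and the edgeR p of 0.0021 became 0.178 after adjustment over all genes. The exact two-sided permutation test over the mice gave p = 0.0286, the smallest that 4 against 4 allows. That value follows from the lack of overlap and adds nothing to it, and Cacnb4 had the same value. Without M901 and M902 the log2 fold change was 0.15, with an edgeR p of 0.0176 and an adjusted p of 0.731. The remaining M893 and M909 were still above all 4 controls.

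Whole retina was sequenced, so fewer cells of a type and less RNA per cell cannot be told apart. Markers of rods, the most numerous cells of the mouse retina, moved with Cacna2d4. Of 4 rod markers, all 4 had a log2 fold change above 0, with a median of 0.16. At an FDR of 0.05, 0 passed, while 3 were higher at an unadjusted p under 0.05, against 6.42% of all genes tested. These 3 were Gnat1, the rod transducin gene, with 0.19, Sag, the rod arrestin gene, with 0.22, and Pde6b, a subunit of the rod phosphodiesterase, with 0.13. The fourth, Nrl, had a log2 fold change of 0.071 with an edgeR p of 0.220, and its groups overlapped. The summed level of the 4 markers was 20769 to 23207 CPM in the controls and 23604 to 25669 CPM in the Rbfox2-/- retinas, without overlap. Gnat1 held most of that sum, at 13081.8 to 14751.6 CPM in the controls and 15115.5 to 16714.5 CPM in the Rbfox2-/- retinas. Taken singly, 2 of the 4 markers were higher without overlap, a state found in 3.64% of all genes tested.

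Cacna2d4 was then set against the mean log2 CPM of the 4 rod markers in each mouse, a comparison chosen after the values were seen. The marker mean itself was 0.15 higher in the Rbfox2-/- retinas, and 0.13 higher with M901 and M902 left out. Relative to the markers, Cacna2d4 was at -0.014, 0.050, -0.0085 and -0.028 in the controls and at 0.034, -0.034, 0.051 and 0.027 in the Rbfox2-/- mice, on a log2 scale with the control mean at 0. The groups overlapped, with means 0.020 apart. The exact two-sided permutation test over the mice gave p = 0.486 for this relative value. The comparison was set up after similar differences had been seen in both, so no conclusion is drawn from that p. The part of the rod markers in the difference of Cacna2d4 was not tested.

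**Figure D3:**
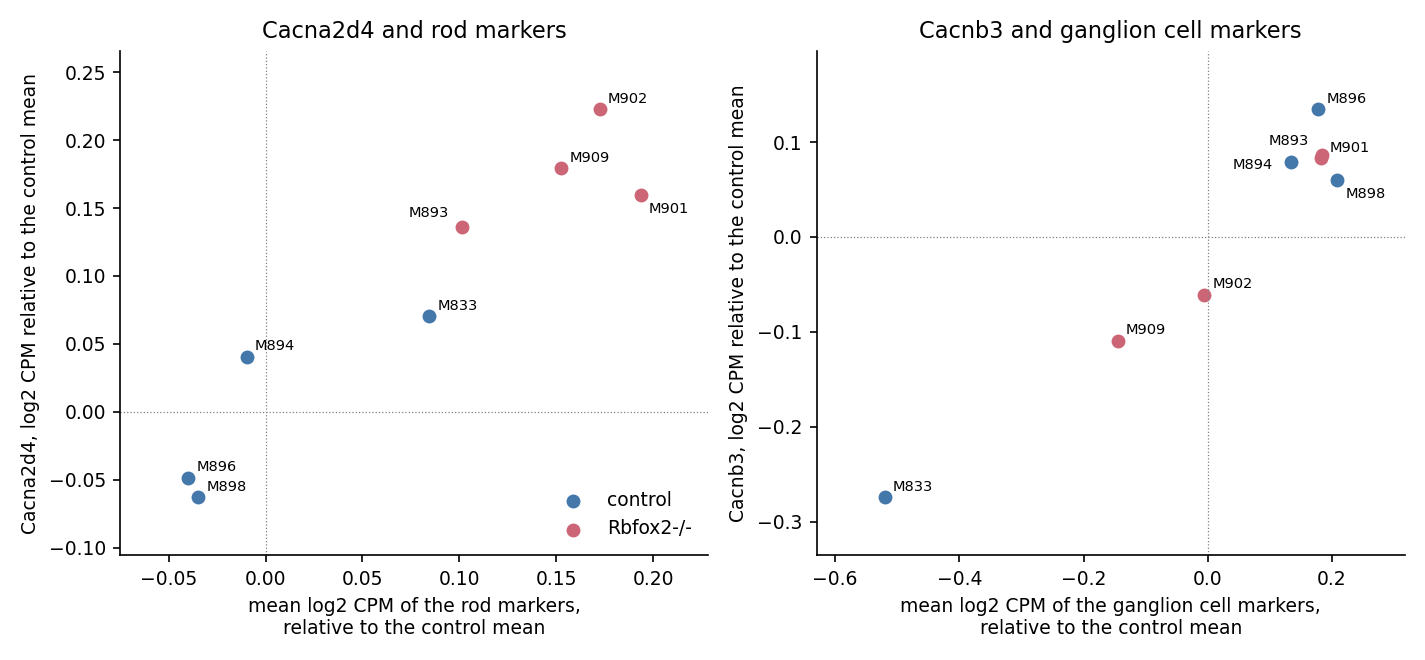
Left, Cacna2d4 against the mean of 4 rod markers; right, Cacnb3 against the mean of 6 ganglion cell markers, both axes in log2 CPM relative to the control mean, with 1 labelled point per mouse. The Rbfox2-/- retinas lie at 0.10 to 0.19 on the rod axis, where control M833 is at 0.084, and M833 lies far to the left on the ganglion cell axis, at -0.52.

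The other α2δ genes had lower means in the Rbfox2-/- group with overlapping mice. Cacna2d1 encodes α2δ-1, a target of gabapentin. It was at 68.0, 61.5, 64.2 and 61.1 CPM in the controls and 55.3, 59.9, 57.7 and 64.5 CPM in the Rbfox2-/- mice. All but M909 were below the lowest control. Its log2 fold change was -0.10, with a 95% interval from -0.22 to 0.019 and an edgeR adjusted p of 0.443.

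Cacna2d2 encodes α2δ-2, whose loss in mice causes ataxia and seizures. It was at 139.3, 143.7, 134.9 and 125.8 CPM in the controls and 133.2, 131.4, 120.4 and 132.5 CPM in the Rbfox2-/- mice. M902 was the one retina below all controls. This amounted to a log2 fold change of -0.07, with an interval from -0.18 to 0.036 and an edgeR adjusted p of 0.560.

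Cacna2d3, which encodes α2δ-3, was at 55.4, 58.4, 55.7 and 58.3 CPM in the controls and at 52.1, 57.8, 54.4 and 50.9 CPM in the Rbfox2-/- mice. The single value inside the control range was that of M901. With all mice the log2 fold change was -0.08, with an edgeR adjusted p of 0.465, and it was -0.15 without M901 and M902, where the unadjusted p was 0.0157 and the adjusted p 0.715. Its unadjusted p was also under 0.05 without M901 alone and with 1 surrogate variable.

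With the mean of Cacna2d4 higher and those of the other α2δ genes lower, its share of the summed α2δ FPKM differed between groups. It made up 64.5% to 65.8% in the controls and 68.0% to 70.4% in the Rbfox2-/- retinas, with no overlap. The share of Cacna2d2 was 17.1% to 18.2% in the controls and 14.5% to 16.6% in the Rbfox2-/- retinas. The shares of a family sum to a whole, so these values are not independent of each other.

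Among the β genes, Cacnb4 had the largest difference. This gene, the β4 gene mutated in the lethargic mouse, was at 52.4, 49.0, 52.2 and 49.5 CPM in the controls and at 47.1, 48.9, 46.7 and 47.7 CPM in the Rbfox2-/- mice. The gap between the groups was narrow, between control M894 at 48.97 and M901 at 48.94 CPM, and smaller than the counting error of either value. The means were 50.8 ± 1.8 and 47.6 ± 0.98 CPM (SD, n = 4), 6.24% apart. The log2 fold change of Cacnb4 was -0.09 ± 0.038 (SE), with a 95% interval from -0.18 to -0.0082, an edgeR p of 0.0347 and an adjusted p of 0.344. Without M901 and M902 it was -0.10, with an edgeR p of 0.0715 and an adjusted p of 0.872.

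Cacnb2, the β subunit of the photoreceptor channel, was at 211.1, 217.4, 218.3 and 220.0 CPM in the controls and 201.1, 221.5, 215.5 and 217.9 CPM in the Rbfox2-/- mice. M893 was below and M901 above all controls. Its log2 fold change was -0.02, and the 95% interval ran from -0.10 to 0.065, below the whole interval of Cacna2d4. The difference between these genes was not itself tested.

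Cacnb3, which encodes β3, was at 52.7, 67.3, 69.9 and 66.4 CPM in the controls and 67.6, 67.5, 61.1 and 59.1 CPM in the Rbfox2-/- mice. The lowest value was that of control M833, and the group means were 64.1 and 63.8 CPM. The log2 fold change was -0.0060, with an interval from -0.20 to 0.18, and leaving out M833 moved it to -0.09 with an edgeR adjusted p of 0.413.

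M833 was also lowest for ganglion cell markers. The summed level of 6 such markers was 444 CPM in M833 against 714, 731 and 748 CPM in the other controls, and 739, 766, 677 and 579 CPM in M893, M901, M902 and M909. The mice low in Cacnb3, which are M833, M909 and M902, were those with the lowest marker sums. Of these 6 markers 4 had a log2 fold change above 0 and 2 below, and 0 passed an unadjusted p of 0.05. The part of the ganglion cell content in the Cacnb3 values was not tested.

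Cacnb1 encodes β1, the β subunit of the skeletal muscle channel, and was the member with the lowest CPM. It was at 23.5, 28.4, 26.2 and 26.0 CPM in the controls and 28.3, 26.2, 24.8 and 23.0 CPM in the Rbfox2-/- mice. The lowest values were those of M909 and of control M833, one in each group, followed by that of M902. These mice were also the ones low in Cacnb3 and in ganglion cell markers. The Pearson correlation of log2 CPM between Cacnb1 and Cacnb3 was 0.80 over all mice, the highest of any pair of members. That between Cacna2d1 and Cacnb4 was 0.77. The log2 fold change was -0.02, with an interval from -0.19 to 0.14. Markers of skeletal muscle, which can be carried over with the eye muscles, were summed over 7 genes. The sums were 8.20 to 12.2 CPM in the controls and 8.15 to 10.6 CPM in the Rbfox2-/- retinas. The parts of muscle and of ganglion cell content in the Cacnb1 values were not tested.

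For the members that missed the thresholds the intervals limit the size of any difference. The interval of Cacnb2 spanned -6.78% to 4.58%, and those of Cacnb1 and Cacnb3 reached -12.2% to 10.2% and -12.7% to 13.6%. Those of Cacna2d1, Cacna2d2 and Cacna2d3 ran from -14.3% to 1.30%, from -11.6% to 2.56% and from -12.0% to 1.37%. Counting error, at most 1.59% for any member in any mouse, stood beside a spread between mice whose coefficient of variation within a group was 1.79% to 12.1%.

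The pore-forming subunits, which the auxiliary subunits accompany, gave a similar picture. Of 10 α1 genes tested, 0 passed an FDR of 0.05, with a median log2 fold change of -0.05 over the list. At an unadjusted p under 0.05, Cacna1f and Cacna1s were higher and Cacna1a was lower. Over all genes, 6.42% were higher and 6.87% lower at that threshold. Groups without overlap were found in 3.64% of all genes with the Rbfox2-/- group higher and 3.39% with it lower. Cacna1f, the pore of the photoreceptor channel, was at 456.4, 488.2, 393.3 and 355.9 CPM in the controls and 481.8, 464.2, 506.5 and 513.2 CPM in the Rbfox2-/- mice. The groups overlapped, and the log2 fold change was 0.21 ± 0.089 (SE) with an edgeR adjusted p of 0.352. Cacna1a, the pore of P/Q-type channels, was at 86.2 to 95.5 CPM in the controls and 74.1 to 81.0 CPM in the Rbfox2-/- mice, without overlap, at a log2 fold change of -0.20 and an edgeR adjusted p of 0.116. Cacna1s, the pore of the skeletal muscle channel, was at 32.9 to 41.4 CPM in the controls and 43.4 to 47.9 CPM in the Rbfox2-/- mice, also without overlap, with an edgeR adjusted p of 0.283.

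**Figure D4:**
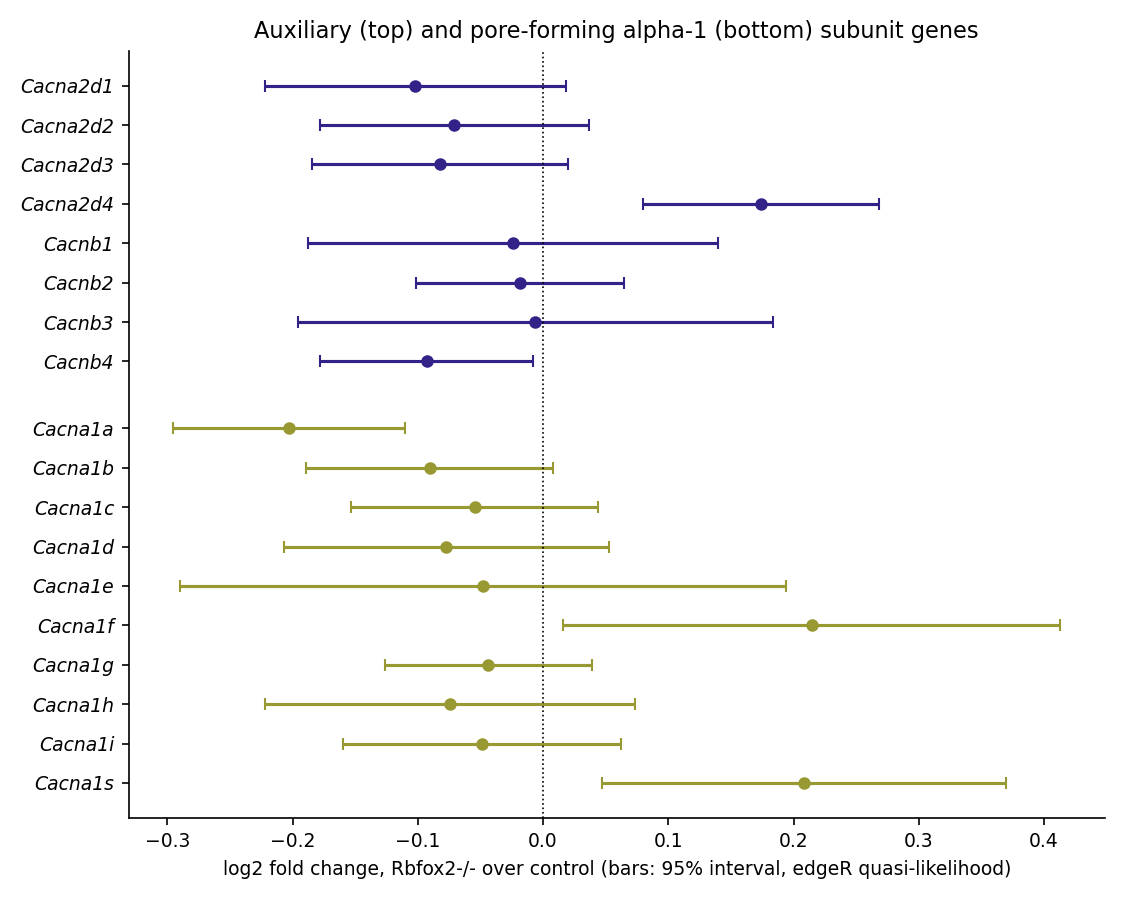
Log2 fold change, Rbfox2-/- over control, with its 95% interval for the 8 auxiliary and the 10 α1 genes. Among the auxiliary genes only the intervals of Cacna2d4 and Cacnb4 leave out 0, and among the α1 genes those of Cacna1a, Cacna1f and Cacna1s.

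Other partners of the auxiliary subunits were described from lists of genes, in which 0 genes passed an FDR of 0.05. The shares of all genes tested at an unadjusted p under 0.05 were 6.42% higher and 6.87% lower. Of 8 partners and relatives of α2δ, 1 was higher and 1 lower at an unadjusted p under 0.05, with a median log2 fold change of -0.0013. The higher one was Elfn1, whose protein binds α2δ-4 at rod synapses, at 156.9 to 172.3 CPM in the controls and 169.2 to 186.3 CPM in the Rbfox2-/- mice, with a log2 fold change of 0.16 and an edgeR adjusted p of 0.216. The lower one, the thrombospondin gene Thbs2, stood at only 1.14 to 3.13 CPM in the controls. It was at 1.28, 0.30, 0.35 and 1.26 CPM in M893, M901, M902 and M909. Its log2 fold change was -1.34, with an edgeR adjusted p of 0.322, and only the female-pattern M901 and M902 were below the controls. These libraries were also low in Best2 and Slc13a4, pigment and ciliary epithelium markers given further on, and the cause was not tested. Of 10 presynaptic partners tested, Cabp4 was higher and Cabp5 lower at that threshold, with a median of 0.012. Cabp5, with the lowest p of this list, was at 96.8 to 105.1 CPM in the controls and 87.7 to 98.7 CPM in the Rbfox2-/- mice. Its log2 fold change was -0.14, with an edgeR adjusted p of 0.239. Cabp4, the calcium-binding protein of the photoreceptor channel, was at 209.7 to 231.0 CPM in the controls and 219.1 to 266.3 CPM in the Rbfox2-/- mice, with a log2 fold change of 0.16 and an edgeR adjusted p of 0.297.

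Of 7 genes for proteins that bind the β subunit or the channel, 1 was lower at an unadjusted p under 0.05 and 0 were higher. It was Gem, a small GTPase that binds β subunits, at 21.2 to 26.7 CPM in the controls and 18.8 to 22.8 CPM in the Rbfox2-/- mice, with an edgeR adjusted p of 0.353. Of 7 γ subunit genes, 0 passed in either direction, and their lowest edgeR adjusted p was 0.670.

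Markers of the other retinal cells moved in both directions. The summed cone markers were higher in every Rbfox2-/- retina than in any control, and the summed horizontal cell and Müller glia markers lower. Over all genes tested, 6.42% were higher and 6.87% lower at an unadjusted p under 0.05. The summed horizontal cell markers were 99.6 to 106.2 CPM in the controls and 81.6 to 85.6 CPM in the Rbfox2-/- retinas, with 1 of 4 higher and 1 lower at an unadjusted p under 0.05. The lower one was Calb1, the calbindin gene, which held most of the sum, at 73.9 to 78.0 CPM in the controls and 56.3 to 60.5 CPM in the Rbfox2-/- retinas, with an edgeR adjusted p of 0.00341. The higher one was Lhx1, a transcription factor of horizontal cells, with a log2 fold change of 0.18. The cone markers summed to 808.1 to 820.5 and 861.0 to 984.9 CPM, with 4 of 5 at a log2 fold change above 0. At an unadjusted p under 0.05, Opn1sw was higher, with a log2 fold change of 0.26, and Opn1mw lower, with -0.23. The bipolar markers summed to 1487 to 1608 and 1431 to 1513 CPM, with 3 of 6 lower. The amacrine markers summed to 1054 to 1150 and 1051 to 1107 CPM, with 0 of 6 past that threshold. The Müller glia markers summed to 4067 to 4390 and 3787 to 3995 CPM, with 1 of 4 lower. It was Glul, which held most of the sum, at 3214 to 3565 CPM in the controls and 2946 to 3083 CPM in the Rbfox2-/- retinas. Of the 4 Müller glia markers, 2 had a log2 fold change above 0 and 2 below, with a median of 0.0021. Non-neural markers were variable between mice: those of pigment and ciliary epithelium summed to 62.5 to 112.3 and 41.8 to 130.9 CPM, with 1 of 6 lower, and vascular markers to 38.4 to 46.4 and 31.0 to 42.6 CPM, with 2 of 4 lower. Lens and surface epithelium markers summed to 0.72 to 1.64 and 1.53 to 26.5 CPM, with 2 of 4 higher and the highest value in M909. Retinal neurons also use auxiliary subunits, and the part of cell content in the differences of Cacna2d1, Cacna2d2, Cacna2d3 and Cacnb4 was not tested.

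Among the genes whose pattern over the 8 mice was most like that of Cacna2d4, by Pearson correlation of log2 CPM, were Lrrc46 with r = 0.986 and Wbp1 with 0.975. For Cacnb4 the most alike were Lrch2 with 0.977 and the potassium channel genes Kcnj2 with 0.967 and Kcnb2 with 0.957. They were chosen for the height of r among all genes tested, and the points share the same libraries and group difference. As many as 162 genes exceeded 0.9 with Cacna2d4 and 26 with Cacnb4.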

How the data were processed

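Retinal RNA was prepared by the submitters as poly(A) libraries and sequenced in paired ends. The labels name CASAVA 1.8.2, while the methods name a different Illumina program for demultiplexing. Per the methods, the authors aligned reads to mm10 (GRCm38 in the labels) with STAR, kept unique alignments and counted reads per gene with HTSeq. The strand setting of the counting is not given in the sources used here, and gene counts do not show splicing. The deposited counts are whole numbers without normalization. The deposited FPKM values were made by the authors from these counts, and each gene's implied length was the same in every library, with no TMM factor. Depth-adjusted counts, a signal column set deposited beside them, were not used. The 8 columns comparing each mouse with the other group and the authors' fold changes and p-values were not used.

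Counts were analysed in R 4.3.3 with edgeR 4.0.16 (filterByExpr, TMM, quasi-likelihood F test, two-sided, Benjamini-Hochberg over 16797 genes; 703 were not tested). CPM values are TMM-normalized, a standard error is the log2 fold change over the square root of F, and intervals are at 95%. FDR and unadjusted thresholds were 0.05. The labels give 8 mice; p-values measure the spread between them. No 2 libraries held the same values. Alternatives were DESeq2 1.42.0, limma 3.58.1 (voom), edgeR's likelihood ratio and exact tests, other scalings and filters (none, or at least 10 counts in every sample), 1 surrogate variable from sva 3.50.0, and left-out mice. The fit was tested on simulated data. Transcripts and coordinates came from GENCODE M21.

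The members and the gene lists were chosen with earlier results of these data known. The named genes were the 8 members, Rbfox2, the lowest p-values of each related list (10 α1, 8 γ, 8 β or channel binding, 8 α2δ partner and 11 presynaptic genes), and the 3 genes most like the member with the lowest p in each family. Pigment and ciliary epithelium, vascular, and lens and surface epithelium markers were counted as well. A rod marker, a gene like Cacna2d4, a detail of the Cre line and a sequence match are not reported here; the rod marker was left out of the rod values after they had been computed with it.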

Additional observations from a re-analysis of the deposited data

Results flagged for a closer look

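One value lay far from the rest of its group. Cacna2d2 in the Rbfox2-/- mouse M902 was at 120.4 CPM, while the other 3 Rbfox2-/- retinas were at 131.4 to 133.2 CPM, so that most of the group's range was the gap to this mouse. M902 is one of the female-pattern libraries. Of 18 groups of 4 mice examined, 1 had such a value, where chance alone would give 0.9. Without M901 and M902 the log2 fold change of Cacna2d2 was -0.04, against -0.07 with all mice.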

How the results depend on the processing

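Over 18 alternatives, the log2 fold changes of Cacna2d1, Cacna2d2, Cacna2d3, Cacna2d4 and Cacnb4 kept their sign and, except for Cacna2d4 with DESeq2 (0.17, adjusted p = 0.00582), their side of the FDR threshold. Other adjusted p-values of Cacna2d4 ran from 0.102 to 0.731, and its unadjusted p was under 0.05 in all 18, that of Cacnb4 in 11. Leaving out each mouse gave ranges of -0.14 to -0.07 for Cacna2d1, -0.11 to -0.04 for Cacna2d2, -0.12 to -0.06 for Cacna2d3, 0.15 to 0.20 for Cacna2d4, -0.11 to -0.08 for Cacnb4, -0.076 to 0.024 for Cacnb1, -0.036 to 0.010 for Cacnb2 and -0.092 to 0.039 for Cacnb3. An unadjusted p under 0.05 was gained by Cacna2d1 without M909 (-0.14), by Cacna2d2 without M898 (-0.11) and by Cacna2d3 without M901 (-0.12) in the edgeR fit. Cacnb1 turned positive with 1 surrogate variable (0.0028), and Cacnb3 with limma-voom (0.0015) and with the surrogate variable (0.016); the cause was not tested. The number of auxiliary genes at an FDR of 0.05 was 1 with DESeq2 and 0 otherwise. Over all genes it was 164 with the likelihood ratio test, 154 with edgeR's exact test, 460 with DESeq2, 1 when M901 and M902 were left out, 5 with a surrogate variable, and 5 to 35 with each mouse left out, against 11: 35 without M833, 19 without M894, and 5 or 6 without M896, M898, M893, M901 or M909. The ratio of Cacna2d4 to the gene next in order was 3.52 on union-of-exon lengths against 1.76 as deposited. No paired analysis was possible because the labels give no replicate numbers that groups share.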
